A study of Homo sapiens with 8 samples.

Results

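Isoform uc001acj.4 is 1 of 65514 isoform rows with usable values in a table of FPKM (sequenced fragments relative to transcript length and to all fragments mapped in a library), and it was singled out by its identifier, which is the UCSC Known Gene identifier given for ISG15. It was chosen by its measured FPKM, which were higher in polysomal than in total RNA. Its polysomal to total ratios are therefore described below without a test. The siRNA comparisons below used the same FPKM, so their p-values and intervals are not independent of this choice. The table lists identifiers with no gene symbols, and the reference gene tables used here did not hold this identifier, so the name ISG15 rests on the identifier alone and was not checked in the data. The cells were HT-144, a human line derived from a melanoma, and received either control siRNA or siRNA against DDX3X, a helicase of the DEAD-box family that unwinds RNA and takes part in starting translation. From each siRNA, total RNA and polysomal RNA (RNA bound by several ribosomes, recovered from a sucrose gradient) were sequenced in 2 libraries, giving 4 groups and 8 libraries. The labels name no interferon treatment in any group, and they do not state whether the 2 replicates of a group were separate cultures, so the p-values rest on library-to-library spread that may be technical.

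ISG15 is a small ubiquitin-like protein. A dedicated set of activating, conjugating and ligating enzymes attaches it to other proteins, a process called ISGylation, and the protease USP18 removes it; the free protein is also secreted and acts as a cytokine. Type I interferon induces the gene strongly through interferon-stimulated response elements in its promoter. The genes of these enzymes, other interferon-induced genes, DDX3X itself and melanoma markers were not analysed here, because no source used here pairs their symbols with identifiers of the table. The knockdown and the cell type were therefore not checked either.

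The ISG15 gene lies on the plus strand at chr1:1013497-1014540 in the RefSeq annotation of GRCh38.p14, the same genome assembly as the hg38 build named in the submitters' processing notes. Its promoter is shown because the gene is named for its response to interferon and a match to the element known for this response lies in it. The 30 bases at chr1:1013377-1013406 (GRCh38.p14, plus strand, 5′ to 3′, from RefSeq) are as follows, with the core of the interferon-stimulated response element (GAAA, any 2 bases, GAAA), in 2 overlapping copies, in capitals.
ISG15 promoter: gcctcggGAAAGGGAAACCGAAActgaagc
The capitals cover 16 bases, from 113 to 98 bases upstream of the annotated start, and hold 2 overlapping matches on the plus strand and 0 on the minus strand of the 300-base window. Of 35116 RefSeq promoter windows of this length, 3.57% held this core on either strand and 0.154% held 2 copies that overlap in this way. A match describes the sequence and does not show that a factor was bound in these cells.

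The transcript that GENCODE release 29 pairs with the RefSeq mRNA of ISG15, ISG15-204, has 2 exons, at chr1:1013497-1013576 and chr1:1013984-1014540. Its start codon, at chr1:1013574-1013576, is the end of exon 1, so the rest of the coding sequence lies in exon 2. It is a short mRNA of 637 bases, with a 5′ UTR of 77, a coding sequence of 495 without the stop codon, and a 3′ UTR of 62 bases. Among 52456 basic protein-coding transcripts with both UTRs, 4.71% were shorter, 22.3% had a shorter 5′ UTR and 6.18% had a shorter 3′ UTR, and the median lengths were 2300, 176 and 566 bases. GENCODE lists 4 ISG15 transcripts in all, which share most of exon 2, and Cufflinks divides fragments between such isoforms by a model. Whether uc001acj.4 has exactly the ends of ISG15-204 was not tested.

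FPKM hold no fragment counts, so the depth of each library was unknown and no counting interval was computed. From 12786 to 13481 isoforms were at 1 FPKM or above in a library, and the 15531 that were so in 2 libraries or more were tested. Control polysomal replicate 2 had the smallest sum of FPKM (654252) and DDX3X polysomal replicate 1 the largest (5486857), and the 10 most abundant isoforms held from 42.2% to 93.5% of these sums. Median-of-ratios factors, which follow the bulk of the isoforms, ran only from 0.949 to 1.18.

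The ISG15 isoform was lowest in control total RNA and highest in polysomal RNA after DDX3X siRNA. In control total RNA it stood at 22.5 and 21.3 FPKM (replicates 1 and 2), with a mean of 21.9 ± 0.841 FPKM (SD, n = 2). In total RNA with DDX3X siRNA it stood at 25.5 and 47.4 FPKM, with a mean of 36.4 ± 15.5 FPKM (SD, n = 2). These last libraries were far apart, with replicate 2 close to the polysomal controls and replicate 1 close to the total RNA controls. In control polysomal RNA the isoform stood at 52.9 and 49.7 FPKM (mean 51.3 ± 2.23, SD, n = 2). In polysomal RNA with DDX3X siRNA it stood at 88.5 and 90.9 FPKM (mean 89.7 ± 1.71, SD, n = 2). No 2 groups overlapped in the deposited values. The same order of the 4 groups without overlap was found for 2.81% of the tested isoforms. This order depended on the scaling. After quantile normalization DDX3X total replicate 2 (51.2 FPKM) lay above both control polysomal libraries (46.2 and 45.6 FPKM). After scaling to the same FPKM sum control polysomal RNA was highest (164 and 212), above DDX3X polysomal RNA (44.9 and 106).

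**Figure D1:**
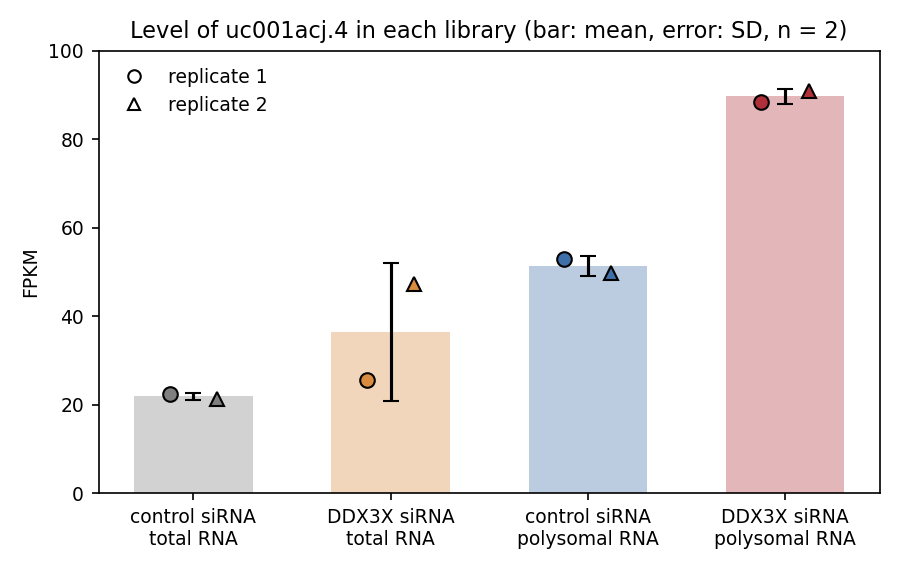
FPKM of uc001acj.4 in each of the 8 libraries (circles replicate 1, triangles replicate 2), with bars for the group mean and error bars for the SD (n = 2 per group). The DDX3X total RNA libraries, at 25.5 and 47.4 FPKM, lie far apart, while the pairs of the other 3 groups lie within 3.15 FPKM of each other.

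The gaps between neighbouring groups were of unequal size. Control and DDX3X polysomal RNA were separated by 35.6 FPKM, while their replicates differed by 3.15 and 2.42 FPKM. The gap from control total to DDX3X total RNA was 2.97 FPKM and that from DDX3X total to control polysomal RNA was 2.35 FPKM, both far less than the 21.9 FPKM between the DDX3X total RNA replicates. So of the 3 steps in this order, that between the polysomal groups alone was larger than the spread within both groups it separates. On the log2(FPKM + 1) scale the DDX3X total RNA replicates differed by 0.87, and 92.3% of all tested isoforms, or 97.3% of those averaging 5 FPKM or more, differed less between these libraries. The corresponding differences in the other groups were 0.09 (control polysomal), 0.07 (control total) and 0.04 (DDX3X polysomal), each below the median of the tested isoforms. The closeness of the DDX3X polysomal pair held only for the deposited values. It stood at 89.8 and 77.0 FPKM after median-of-ratios scaling and at 86.2 and 77.5 after quantile normalization. Control polysomal RNA stayed lower in both, at 46.8 and 46.9 and at 46.2 and 45.6.

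In every library ISG15 was among the more abundant isoforms, on a scale that accounts for length. Between 86.0% (control total replicate 2) and 96.0% (DDX3X polysomal replicate 1) of the tested isoforms had a lower FPKM. Its level was 6.04 to 6.61 times the median of the tested isoforms in the control total RNA libraries and 13.9 and 14.2 times in the control polysomal libraries. With DDX3X siRNA it was 7.28 and 12.7 times the median in total RNA and 26.6 and 23.2 times in polysomal RNA. Reading each library against its own median thus left the control total RNA libraries lowest and the DDX3X polysomal libraries highest.

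How much of the RNA was found on polysomes was described by the ratio of polysomal to total FPKM, the pattern for which the isoform was proposed. With control siRNA the ratio of the means was 2.34, and the ratios of single libraries lay between 2.21 and 2.48. With DDX3X siRNA the ratio of the means was 2.46, but those of single libraries ran from 1.87 to 3.57, depending on the total RNA library used. Both polysomal libraries exceeded both total RNA libraries with either siRNA, as did those of 39.8% of all tested isoforms with control and 34.4% with DDX3X siRNA. The log2(FPKM + 1) difference was 1.19 with control siRNA, where the median of the tested isoforms was 0.12 and 96.5% lay lower. With DDX3X siRNA it was 1.34, against a median of 0.07, and 98.5% lay lower. The control value of 1.19 became 3.29 when every library was scaled to the same FPKM sum, 1.02 after median-of-ratios scaling and 0.92 after quantile normalization. The DDX3X value of 1.34 became 1.10, 1.26 and 1.10 in the same order of settings. Under same-sum scaling the control value was thus the higher. On the deposited values, 94.7% and 97.6% of the 2484 isoforms averaging 20 FPKM or more lay lower. The medians of these more abundant isoforms were higher than those of all tested isoforms, at 0.38 with control and 0.35 with DDX3X siRNA. FPKM are relative to each library, so these ratios rank isoforms and do not give the share of ISG15 molecules bound by ribosomes.

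**Figure D2:**
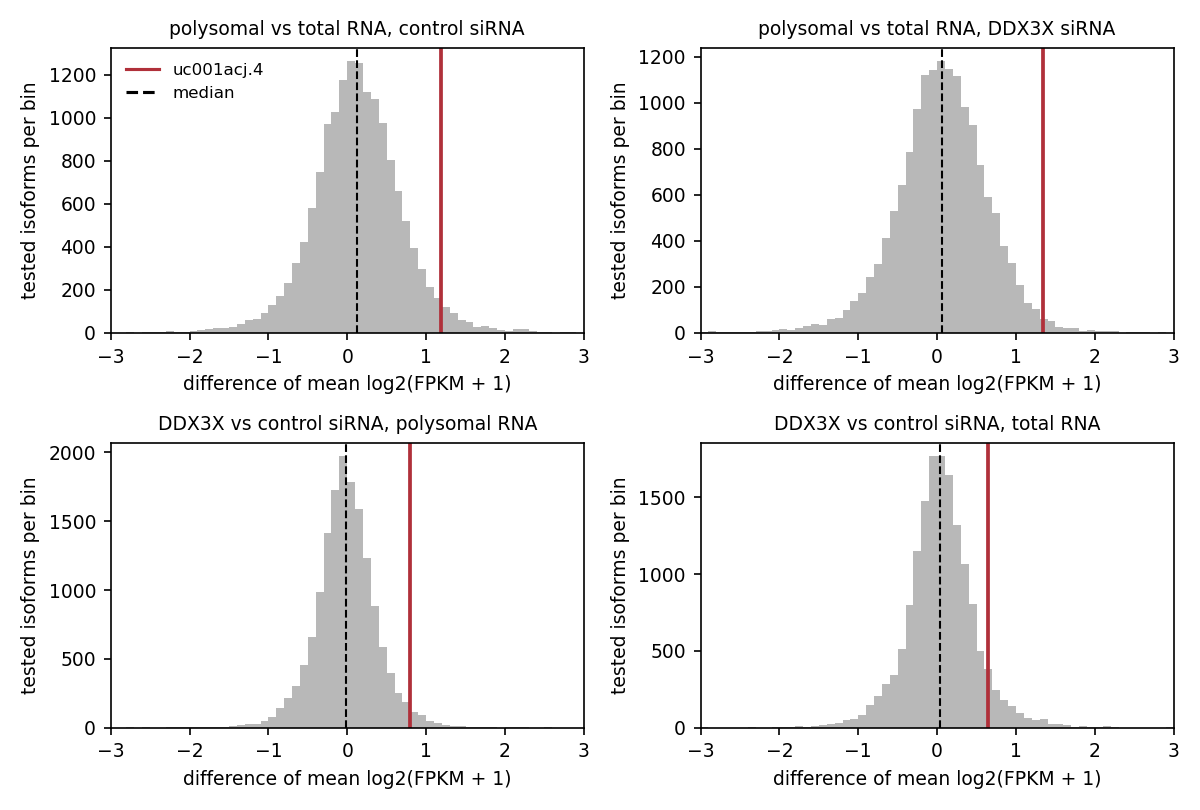
Histograms of the difference in mean log2(FPKM + 1) for the 15531 tested isoforms in 4 comparisons, shown between -3 and 3 in bins of 0.1, with uc001acj.4 as a red line and the median of all isoforms dashed. ISG15 lies to the right of the median in each panel, at 1.19 and 1.34 for polysomal against total RNA and at 0.79 and 0.64 for DDX3X against control siRNA. In the siRNA comparisons 97.4% of the tested isoforms lay lower in polysomal RNA and 92.4% in total RNA.

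The next comparison asked whether DDX3X siRNA changed the level of the isoform on polysomes. Its polysomal level was 89.7 FPKM with DDX3X siRNA and 51.3 FPKM with control siRNA, a ratio of 1.75, and the ratios of single libraries lay between 1.67 and 1.83. Both DDX3X libraries exceeded both controls, as they did for 22.1% of the tested isoforms. The log2 change was 0.79 ± 0.25 (SE), with a 95% interval from 0.19 to 1.40, against a median of -0.02 over all tested isoforms. It did not pass the threshold over all isoforms (limma adjusted p = 0.206, unadjusted p = 0.0174). In this comparison 0.290% of the tested isoforms passed at an adjusted p under 0.05, and 7.48% were higher at an unadjusted p under 0.05. The standard error was shared with the other groups and took in the wide DDX3X total RNA pair: with only the 4 polysomal libraries in the limma fit it was 0.11 (unadjusted p = 0.00113, adjusted p = 0.272). Without DDX3X total replicate 1 or 2 it was 0.10 in each case (limma adjusted p = 0.114 and 0.115). Thus the polysomal difference exceeded the spread between its own replicates but was not called in any of these fits. In such bulk libraries, more cells with the RNA and more RNA per cell cannot be told apart.

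Total RNA showed whether the overall level of the isoform changed as well. The mean was 36.4 FPKM with DDX3X and 21.9 FPKM with control siRNA, a ratio of 1.66, while single libraries gave ratios from 1.13 to 2.22. Both DDX3X libraries exceeded both controls, as for 29.9% of the tested isoforms. The log2 change was 0.64 ± 0.25 (SE), with a 95% interval from 0.04 to 1.25 and a median of 0.04 over all isoforms. It did not pass (limma adjusted p = 0.245, unadjusted p = 0.0397), in a comparison where 0.773% of the isoforms passed and 11.2% were higher at an unadjusted p under 0.05. The size of the change was set by the DDX3X replicate used. It was 1.08 without DDX3X total replicate 1 and 0.21 without DDX3X total replicate 2. Each of these fits kept a single DDX3X total RNA library, so the spread between the replicates of that group did not enter.

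Whether the change on polysomes differed from that in total RNA was tested as the difference between the log2 changes. It was 0.15 ± 0.36 (SE) for ISG15 and did not pass (limma adjusted p = 0.988, unadjusted p = 0.687). The 95% interval, from -0.70 to 1.00, allows a lower as well as a higher polysomal to total ratio after DDX3X siRNA. Over all tested isoforms 0.116% passed in this comparison, and the median was -0.05. The sign again depended on the DDX3X total RNA library. Without replicate 1 the difference was -0.28, and without replicate 2 it was 0.59. Here too a single library stood for DDX3X total RNA, so the spread of that group did not enter.

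Scaling each library to the same FPKM sum turned the direction of 2 of these values. The polysomal change then became -1.42 (limma adjusted p = 0.0223) and the difference of changes -2.19 (limma adjusted p = 0.0179). This scaling moved the median of all tested isoforms to -1.85 and -2.03, so that ISG15 lay 0.43 above and 0.16 below the median. In total RNA, where it moved the median to 0.14, the change was 0.77 and lay 0.63 above it (limma adjusted p = 1). After median-of-ratios scaling or quantile normalization all 3 estimates stayed above 0, at 0.81 and 0.82 on polysomes, 0.58 and 0.64 in total RNA and 0.24 and 0.18 for the difference.

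**Figure D3:**
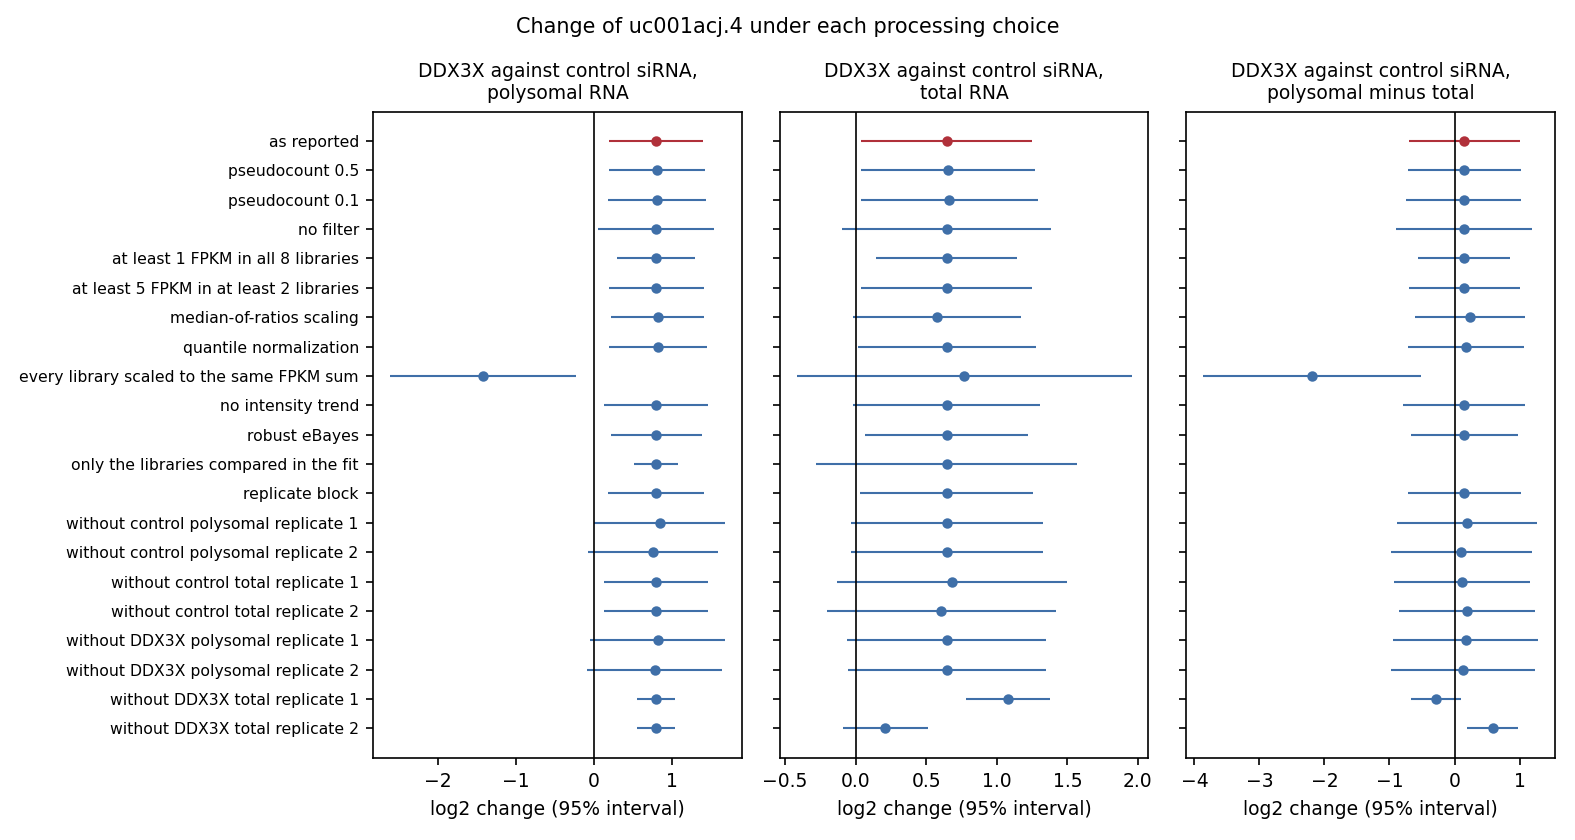
Log2 change of uc001acj.4 with DDX3X against control siRNA in polysomal RNA (left) and total RNA (middle), and the difference of these changes (right), under each processing choice; points are limma estimates and lines their 95% intervals, with the values as reported in red. The polysomal estimate stays between 0.75 and 0.84 except after scaling to the same FPKM sum (-1.42), while the others move with the DDX3X total RNA library left out. Filters, variance models, the replicate block and omission of libraries outside a comparison can change its interval but not its estimate.

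The isoforms most like ISG15 across the 8 libraries were sought by Pearson's r of log2(FPKM + 1), as a description over libraries that also share their scaling. Of 6426 other isoforms averaging 5 FPKM or more and above 0 everywhere, 515 had an r of at least 0.9, 57 had one of -0.9 or less, and the median was 0.42. The closest was uc001bdm.3 (r = 0.993), a much less abundant isoform with a mean of 5.08 FPKM. It stood at 3.70 and 3.71 FPKM in control total, 4.10 and 5.23 in DDX3X total, 5.23 and 5.20 in control polysomal and 6.93 and 6.52 in DDX3X polysomal RNA. Its DDX3X total RNA libraries also differed in the same direction as those of ISG15, but by less, and a shared direction follows from the choice by r. The next was uc021yuu.1 (r = 0.986), at 8.50 and 11.3 FPKM in DDX3X total RNA and 15.6 and 15.2 FPKM in DDX3X polysomal RNA. The lowest r belonged to uc004cbl.4 (-0.980), which stood at 6.84 and 6.54 FPKM in control total RNA and 3.47 and 3.91 FPKM in DDX3X polysomal RNA, and to uc003bzs.1 (-0.972). The files pair none of these identifiers with a gene. Which isoforms ranked closest depended on the scaling and on single libraries. The ranks of uc001bdm.3 and uc021yuu.1 were 41 and 11 after median-of-ratios scaling, 6 and 3 after quantile normalization and 505 and 164 after scaling to the same FPKM sum. They were 4 and 18 without DDX3X total replicate 1 and 9 and 40 without DDX3X total replicate 2, although their r stayed between 0.947 and 0.996 and between 0.967 and 0.994 over 12 alternatives.

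**Figure D4:**
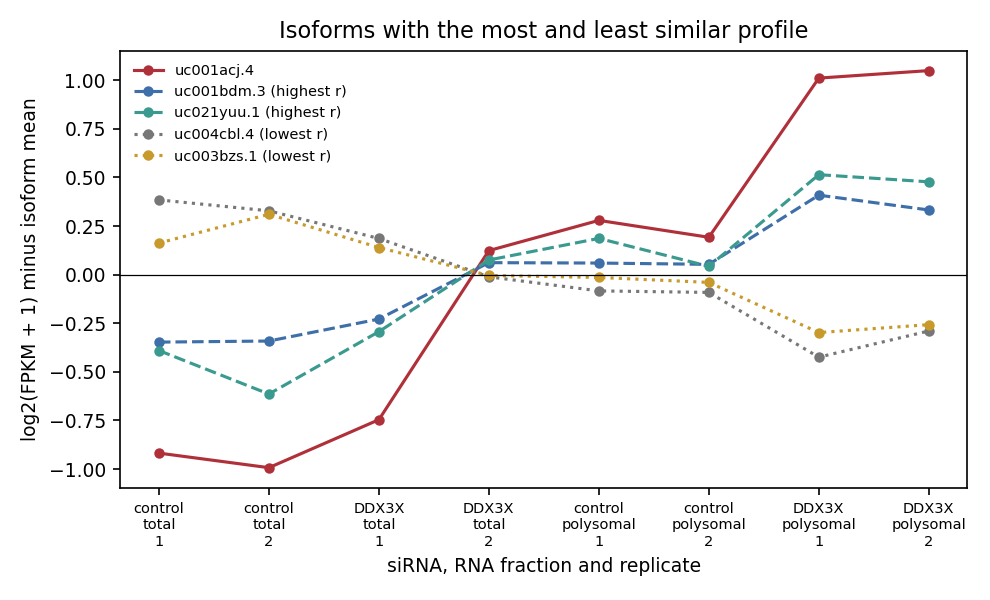
Log2(FPKM + 1) of uc001acj.4 (solid), of the 2 isoforms with the most similar profile (dashed) and of the 2 with the least similar (dotted) in each library, after subtraction of each isoform's mean over the 8 libraries. Of the 5 isoforms shown ISG15 spans the widest range, and in the 2 most similar isoforms DDX3X total replicate 2 also lies above replicate 1.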

How the data were processed

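Total or polysomal RNA of HT-144 cells was sequenced with paired-end reads of 75 bp, per the labels' protocols. The authors deposited FPKM values per isoform; TopHat2, Cufflinks 2.2.1 and build hg38 are named in the submitters' processing notes, while parameters and gene models are not given in the sources used here. Of 65535 isoform rows, 21 were left out (14 with text and 7 with the same whole number in every column), and decimal commas in 5 cells were read as points. Groups and replicate numbers came from the sample titles.

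Values were analysed as log2(FPKM + 1), which understates changes of low isoforms, with no further scaling. A model of 4 group means was fitted to isoforms that reached 1 FPKM in 2 or more libraries, in limma 3.58.1 under R 4.3.3 (eBayes with its variance trend on intensity), with Benjamini-Hochberg adjustment over all 15531 isoforms and a threshold of 0.05. The code was tested on simulated data in which each isoform had the same spread in every group. That test does not show how a group with a wider spread, such as DDX3X total RNA here, is handled. The isoforms named beside uc001acj.4 are the 2 with the highest and the 2 with the lowest r among those averaging 5 FPKM or more and above 0 everywhere. The isoform, rules and tests were chosen with earlier results of these data known. Alternatives covered pseudocount, filter, scaling, variance model, the set of libraries fitted, a replicate block and omission of single libraries. Plots used matplotlib 3.10.9.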

Additional observations from a re-analysis of the deposited data

How the results depend on the processing

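The log2 changes of uc001acj.4 kept their sign and stayed short of the threshold under 19 of 20 alternatives in polysomal RNA, 20 of 20 in total RNA and 17 of 19 for the difference of changes. The exceptions were the same-sum scaling (-1.42 in polysomal RNA and -2.19 for the difference, both past the threshold, limma adjusted p = 0.0223 and 0.0179) and, for the difference, leaving out DDX3X total replicate 1 (-0.28). Without single libraries the polysomal change ran from 0.75 to 0.84, the total RNA change from 0.21 to 1.08 and the difference from -0.28 to 0.59. The log2 ratio of polysomal to total RNA with control siRNA was 1.19 as reported, 1.02 after median-of-ratios scaling, 0.92 after quantile normalization, 3.29 after same-sum scaling and 1.15 to 1.23 without single libraries. With DDX3X siRNA it was 1.34 as reported, 1.26 after median-of-ratios scaling, 1.10 after quantile normalization and 1.10 after same-sum scaling. It ran from 0.91 to 1.78 without single libraries. Same-sum scaling also reversed the r of uc004cbl.4 (0.62) and uc003bzs.1 (0.69). The 10 most abundant isoforms, which held 42.2% to 93.5% of each sum, set that scaling.

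The counts of called isoforms behind the background percentages were less stable. In polysomal RNA 45 isoforms were called as reported, 192 with no filter, 476 at 1 FPKM in all 8 libraries, 247 at 5 FPKM in 2 libraries, 215 after median-of-ratios scaling, 130 after quantile normalization, 14042 after same-sum scaling, 105 with robust eBayes, and 6 with no trend, with only the compared libraries or with the replicate block. In total RNA 120 were called as reported and, in the same order of settings, 205, 518, 281, 465 and 539; robust eBayes gave 268, a pseudocount of 0.1 gave 198, no trend 34, only the compared libraries 15 and the replicate block 21. For the difference 18 were called as reported, 219 with no filter, 12425 after same-sum scaling, and 0 at 1 FPKM in all 8 libraries (limma; 823 at an unadjusted p under 0.05). Without single libraries the counts ran from 5 to 250 in polysomal RNA, with every library moving the count by over 1.5 times. They ran from 5 to 235 in total RNA, again with every library, and from 9 to 24 for the difference, with control total replicate 1 and DDX3X total replicate 1 moving it that far. In these fits the library left alone in its group is assumed to vary like the other groups. The causes were not tested.

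Same-numbered libraries did not deviate together (r of deviations from -0.0849 to 0.0795 over 6 pairs of groups). This does not show whether they came from the same culture. With the replicate block the changes of uc001acj.4 were 0.79, 0.64 and 0.15 (limma adjusted p = 0.250, 0.274 and 0.992). Depth was unknown, so counting error could not be separated from other spread, and 2 libraries per group leave wide intervals.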
